A study of Mus musculus with 2 samples.

Results

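The Hox genes encode homeodomain transcription factors that set position along the body axis and in growing organs. The gene annotation used for the deposited counts lists 55488 genes, and 39 of them carry a symbol made of Hox, a cluster letter from a to d and a number. All 39 were present for both libraries and all were followed here. The data are single-cell RNA counts from P0 mouse kidney, with 1 library from Flcn KO kidney and 1 from Flcn WT kidney. The design text gives the KO animals as Six2Cre; Flcn flox/flox, so both floxed alleles of Flcn can be deleted, and the animals behind the WT label as Six2Cre; Flcn flox/+, so they carry Cre and 1 floxed allele too and are heterozygous rather than wild type. Both groups are newborn (P0), although the tissue label calls the kidney embryonic. Six2Cre acts in the nephron progenitors, so progenitors, early nephron cells, podocytes and the proximal, loop of Henle and distal tubule cells form the lineage in which Flcn can be deleted. Stroma, mural cells, endothelium, immune cells and the ureteric bud with its collecting duct and intercalated cells lie outside it. Folliculin, the product of Flcn, takes part in mTORC1 signalling at the lysosome and is a tumour suppressor. How many animals were pooled for each library is not given in the sources used here.

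Mammalian Hox genes sit in 4 clusters. Genes with the same number in different clusters are paralogues, and low numbers are called anterior and high numbers posterior. In the mouse kidney the Hox11 paralogues (Hoxa11, Hoxc11 and Hoxd11) act with Eya1 and Pax2 upstream of Six2 and Gdnf, and kidneys fail to form when all of them are lost. The Hox10 paralogues (Hoxa10, Hoxc10 and Hoxd10) are needed for the stroma, and regulatory sequence of Hoxb7 is widely used to drive transgenes in the ureteric bud.

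Cluster A held 11 genes at chr6:52155590-52260880 (GRCm38), cluster B 10 genes at chr11:96194316-96368256, cluster C 9 genes at chr15:102921103-103036852 and cluster D 9 genes at chr2:74668310-74765142. Each cluster spanned between 96.8 and 174 kb. The genes are packed so closely that 15 of the 39 overlapped another gene of the annotation on the same strand, 6 in cluster A, none in cluster B, 5 in cluster C and 4 in cluster D. The gene model of Hoxc5 runs across Hoxc6, Hoxc8, Hoxc9 and Hoxc10, that of Hoxa3 across Hoxa4, Hoxa5 and Hoxa6, and those of Hoxd3 and Hoxd4 overlap. How the counting divided reads between such genes was not tested, so their single-gene values are less certain than those of cluster B.

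The homeobox, the 180 bases that encode the DNA-binding homeodomain, was found in transcripts of all 39 genes. Those of the Hox11 paralogues are shown because they are the Hox genes best known for their role in the kidney and show how alike paralogues are. The sequences come from GENCODE M21 transcripts, 5′ to 3′ on the coding strand, and capitals mark 18 bases of the conserved stretch in the third helix, which contacts DNA.
Hoxa11: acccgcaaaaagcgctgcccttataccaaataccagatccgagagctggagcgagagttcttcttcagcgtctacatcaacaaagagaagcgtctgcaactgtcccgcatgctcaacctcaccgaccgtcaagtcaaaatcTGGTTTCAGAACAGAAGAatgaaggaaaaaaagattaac
Hoxc11: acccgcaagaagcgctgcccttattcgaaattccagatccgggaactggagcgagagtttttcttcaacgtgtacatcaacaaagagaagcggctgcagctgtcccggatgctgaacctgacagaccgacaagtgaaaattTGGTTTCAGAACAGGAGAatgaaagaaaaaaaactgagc
Hoxd11: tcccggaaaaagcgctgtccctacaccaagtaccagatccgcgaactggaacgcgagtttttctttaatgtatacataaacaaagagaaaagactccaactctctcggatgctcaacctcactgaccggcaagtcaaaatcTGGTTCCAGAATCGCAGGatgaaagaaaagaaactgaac
Hoxa11 and Hoxc11 had the same base at 86.7% of positions, Hoxa11 and Hoxd11 at 80.6%, and Hoxc11 and Hoxd11 at 79.4%. Over all 42 pairs within a paralogue group the median identity was 80.6% (range 67.2% to 93.9%), against 61.7% over 172 pairs from the same cluster but different groups and 60.6% over 527 pairs that shared neither.

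The KO matrix held 5991 barcodes and 149679281 UMIs and the WT matrix 5572 barcodes and 147390790 UMIs, and 5 barcodes occurred in both. After filters 4798 KO cells with a median of 18458 UMIs and 4000 WT cells with a median of 20956 were kept. Clusters were built without the Hox genes, and 4554 KO and 3635 WT cells fell in clusters that marker genes placed in 1 of 12 classes. Flcn itself had 1559 UMIs in the KO and 1695 in the WT library over all barcodes. This does not check the genotype, because many of the cells lie outside the Six2 lineage, the protocol reads 3′ ends and the deleted part of the gene is not given in the sources used here. With 1 library per genotype there is no replicate and no test. Every interval below is an exact Poisson, binomial or conditional 95% interval, covers counting error only and not the difference between animals, and no p-value is given.

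A level is the UMI count of a gene in a class and library per 1000000 nuclear-encoded UMIs (CPM). A UMI marks 1 captured 3′ end, so levels were not divided by gene length. Hox genes gave 193753 UMIs in the KO and 224956 in the WT library, from 37 and 38 of the 39 genes, and Hoxb13 had none in either. In at least 1 class 28 genes reached 10 CPM in both libraries, and 24 of these 28 had their highest class in common between the libraries. The 11 that did not reach that level in any class include every gene of paralogue groups 12 and 13, and Hoxa2 and Hoxa4. Paralogue group 13, whose genes act in the most caudal structures, summed to at most 0.442 CPM in any class of either library.

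**Figure D1:**
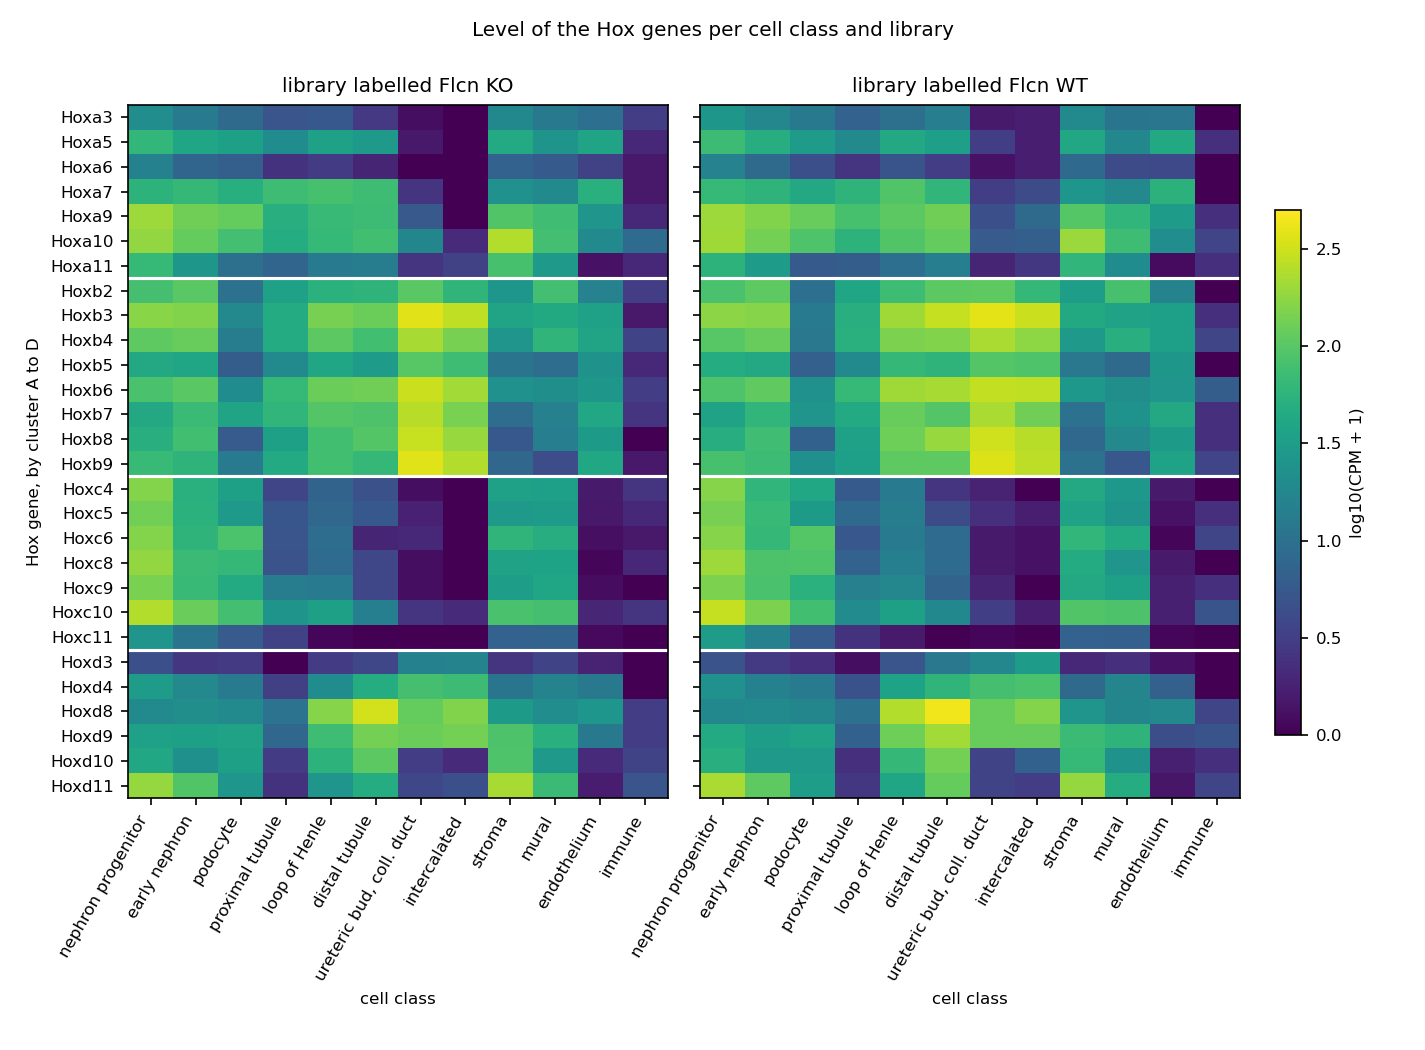
Level of the 28 Hox genes that reached 10 CPM in both libraries in at least 1 class, as log10(CPM + 1) in each of 12 cell classes, with the KO library on the left and the WT library on the right and white lines between clusters A to D. Cluster B is brightest in the ureteric bud and collecting duct, cluster C in nephron progenitors, and Hoxd8 in the distal tubule, in both libraries.

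Nephron progenitors, the self-renewing mesenchyme that gives rise to the nephron, had the broadest set of Hox RNAs. There 27 of the 39 genes reached 10 CPM in both libraries, against 25% of all 37371 genes with a UMI in a named class. All 39 genes together reached 2604 CPM in the KO and 2806 CPM in the WT library. Cluster C made the largest part, with 1045 CPM in KO and 1130.4 CPM in WT progenitors, and its highest gene was Hoxc10 at 246 CPM in KO and 292 CPM in WT. Next to it, Hoxc8 had 184 and Hoxc4 158 CPM in KO, against 200.3 and 161 CPM in WT. Hoxa9, which is also known from blood stem cells, had 200.4 CPM in KO and 202 CPM in WT progenitors. The early nephron class, named from markers of renal vesicles and later tubule precursors, had 25 genes at that level, against 26.3% of all genes. Podocytes had 20, against 24%. In early nephron cells the sum over all Hox genes was 1726 CPM in KO and 1914 CPM in WT, and in podocytes 881 CPM in KO and 929 CPM in WT. With finer clustering 107 KO and 160 WT early nephron cells fell in a cluster that markers placed with progenitors. Its Hox sum was 2733 CPM in KO and 2794 CPM in WT. Another 112 KO and 90 WT cells fell in a cluster placed in the proximal tubule. The early nephron values thus describe a mixture of stages.

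Along the tubule the 4 clusters parted. Proximal tubule cells had the lowest Hox sum of the nephron, 621 CPM in KO and 637 CPM in WT, with 14 genes at 10 CPM in both (22.5% of all genes) and none of cluster D. In the loop of Henle 19 genes reached the level (24.1% of all genes) and in the distal tubule 19 (22.9%). Cluster C was low in both, at 74.3 and 28.1 CPM in KO loop and distal cells, against 102 and 44.2 CPM in WT. Cluster D was high in both. Hoxd8, whose RNA peaked in this stretch, had 159 CPM in KO and 241 CPM in WT loop cells, and 328 CPM in KO and 435 CPM in WT distal tubule cells. Proximal tubule cells had 9.63 CPM of Hoxd8 in KO and 9.14 CPM in WT. Hoxd9 had 135 CPM in KO and 211 CPM in WT distal cells, and Hoxd10 104 CPM in KO and 137 CPM in WT. Hoxa7 was at its highest in the loop of Henle in both libraries, at 81.5 CPM in KO and 91.6 CPM in WT.

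The ureteric bud and its derivatives carried cluster B and the middle of cluster D. In the ureteric bud and collecting duct 12 genes reached 10 CPM in both libraries (26.1% of all genes), and these were Hoxb2 to Hoxb9 with Hoxd3, Hoxd4, Hoxd8 and Hoxd9. Cluster B summed to 2027 CPM in KO and 1989 CPM in WT, the highest sum of any cluster in any class. Hoxb3 led with 382 CPM in KO and 383 CPM in WT, followed by Hoxb9 with 371 CPM in KO and 358 CPM in WT. Hoxb7 had 254 CPM in KO and 225 CPM in WT. Hoxb7 was therefore not the highest gene of its cluster there, and it also had 94.0 CPM in KO and 116 CPM in WT loop cells and 39.5 CPM in KO and 42.0 CPM in WT endothelium. Cluster A summed to 24.8 CPM in KO and 15.7 CPM in WT ureteric cells, and cluster C to 4.13 CPM in KO and 6.57 CPM in WT. The intercalated class was named from markers of the acid-base transporting cells of the collecting duct. It had 12 genes at the level as well (24.3% of all genes), 8 of cluster B and 4 of cluster D. These are counts from 14 KO and 42 WT cells. With finer clustering 10 of these KO and 27 of these WT cells fell in a cluster led by Fxyd4, Sprr2f and Aqp2. Markers placed that cluster in the ureteric bud and collecting duct, so the levels are not those of intercalated cells alone.

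Stroma had 20 genes at 10 CPM in both libraries (25.3% of all genes), and it was led by posterior genes of clusters A and D. Hoxa10 had 241 CPM in KO and 198 CPM in WT stroma, and Hoxd11 had 224 CPM in KO and 186 CPM in WT. Mural cells, the pericytes, smooth muscle and renin cells around vessels, had 23 genes at the level (24.5% of all genes). Their sum was 934 CPM in KO and 844 CPM in WT, lower than the 1368 CPM in KO and 1295 CPM in WT of stroma. Endothelium had 13 genes at the level (24.5% of all genes), 8 of them of cluster B, and cluster C summed there to 2.85 CPM in KO and 3.15 CPM in WT. Immune cells, which form outside the kidney, had none, against 21.3% of all genes, and all 39 genes summed to 40.7 CPM in KO and 42.6 CPM in WT. Their levels are given below for comparison, as the class with the least Hox RNA. Whether that RNA came from immune cells or was free in the droplets was not tested.

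**Figure D2:**
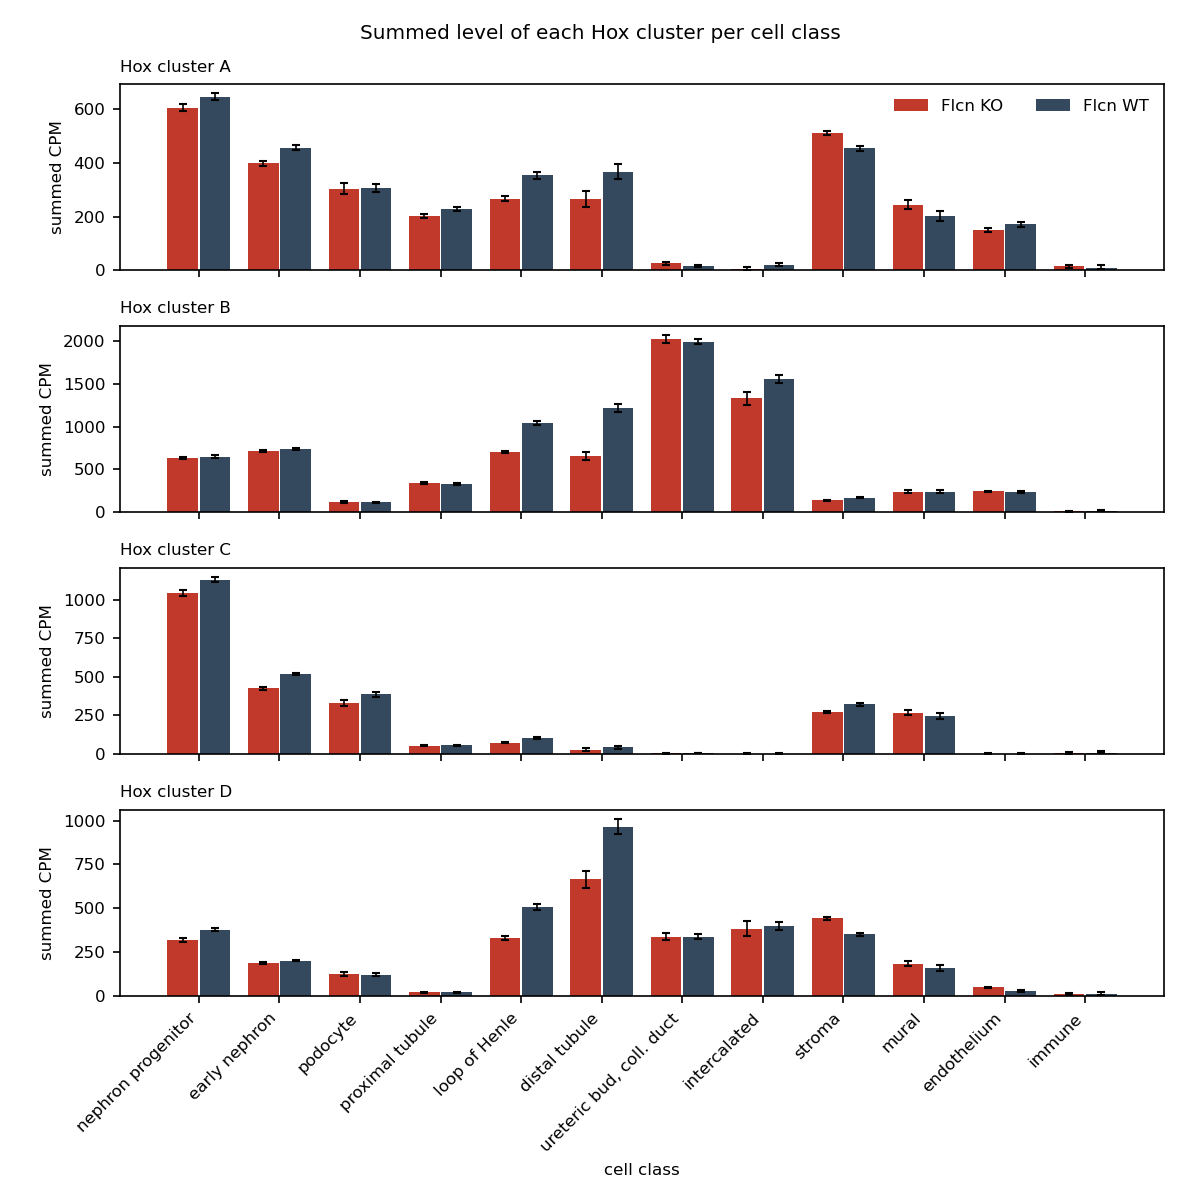
Summed level in CPM of all genes of each Hox cluster (A to D, top to bottom) in each cell class, with KO bars left of WT bars and exact Poisson 95% intervals as error bars. Cluster B stands at 2027 CPM in KO and 1989 CPM in WT ureteric bud and collecting duct, cluster C at 1045 CPM in KO and 1130.4 CPM in WT progenitors, and the KO bars of all 4 clusters are lower in the loop of Henle and distal tubule.

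The Hox11 paralogues had their highest summed levels in progenitors and stroma, and lower ones in nephron epithelium. Hoxd11 had the most RNA of the group, with 186 CPM in KO and 226 CPM in WT progenitors. Hoxa11 had 64.0 CPM in KO and 54.2 CPM in WT progenitors, and 80.3 CPM in KO and 58.5 CPM in WT stroma. Hoxc11 reached 10 CPM in both libraries only in progenitors, at 24.4 CPM in KO and 30.1 CPM in WT. Summed, group 11 had 275 CPM in KO and 310.5 CPM in WT progenitors, and 309.9 CPM in KO and 251 CPM in WT stroma. Ureteric bud and collecting duct had 4.39 CPM in KO and 3.57 CPM in WT, and endothelium 1.16 CPM in KO and 0.742 CPM in WT. Immune cells had 5.15 CPM of group 11 in KO and 3.99 CPM in WT, so group 11 stood close to the immune level in the ureteric bud. Group 9 did not, with 499 CPM in KO and 479 CPM in WT ureteric bud and collecting duct. Along the nephron the Hox10 paralogues summed to more than the Hox11 ones, with 194 CPM in KO and 269 CPM in WT distal tubule. Hoxa10 had 115 CPM in KO and 137 CPM in WT early nephron cells, 45.6 CPM in KO and 55.3 CPM in WT proximal tubule, and 63.0 CPM in KO and 91.7 CPM in WT loop cells. Hoxc10 had 78.0 CPM in KO and 76.0 CPM in WT podocytes, and Hoxd10 had 32.9 CPM in KO and 27.5 CPM in WT podocytes.

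Within stroma Hoxa10, Hoxa11 and Hoxd11 were graded across the 9 clusters of cells that made up the class, while Hoxb2 was lowest where Hoxa10 was highest and Hoxc10 was lowest in another cluster. Hoxa10 ran between 114 and 501 CPM in KO and between 106 and 461 CPM in WT stroma. It was lowest in the cluster led by Gria1, Ntn1 and Rspo3 and highest in the cluster led by Cpa6, Unc13c and Zfp536 in both libraries. The cluster led by Lrriq1, Synpo2 and Dach2 came next to the highest, with 387 CPM in KO and 431 CPM in WT. Hoxa11 ran between 29.9 and 146 CPM in KO and between 36.8 and 115 CPM in WT stroma, and Hoxd11 between 93.9 and 320.2 CPM in KO and between 106 and 343 CPM in WT. Hoxb2 had its lowest level in the Cpa6 cluster, 1.92 CPM in KO and 9.75 CPM in WT, and its highest in the cluster led by the cell-cycle gene Aspm, 39.4 CPM in KO and 55.2 CPM in WT. Hoxc10 was lowest in the cluster led by Cck, at 37.9 CPM in KO and 39.7 CPM in WT.

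**Figure D3:**
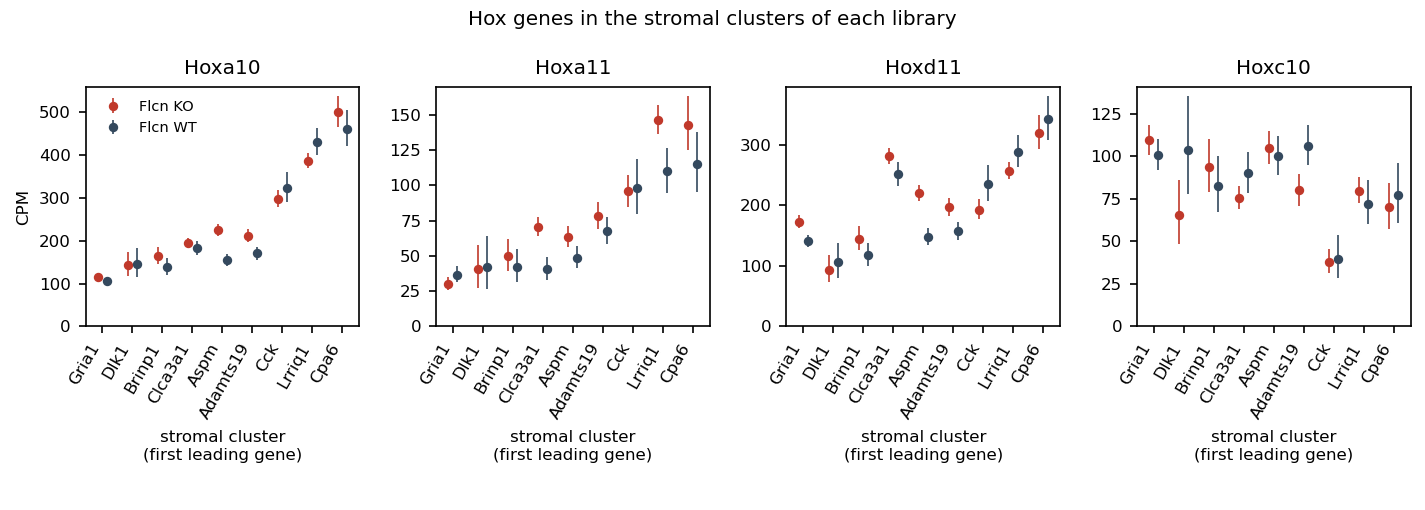
Level in CPM of Hoxa10, Hoxa11, Hoxd11 and Hoxc10 in the 9 stromal clusters, each cluster named by its first leading gene, with KO points left of WT points and exact Poisson 95% intervals. Hoxa10 spans 114 to 501 CPM in KO and 106 to 461 CPM in WT and is lowest in the Gria1 and highest in the Cpa6 cluster of both libraries, while Hoxc10 is lowest in the Cck cluster.

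To compare KO with WT, a gene was counted in a class when it had at least 50 UMIs over both libraries and at least 5 CPM in 1 of them, and it was called higher or lower at a ratio of at least 1.5 or at most its inverse. For ratios below 1 no share of all genes was counted, so the median log2 ratio of all genes is set beside them. In the 6 Six2-lineage classes 143 pairs of Hox gene and class met the minimum, of which 1 was higher and 28 were lower. Of all 65154 pairs of gene and class there, 8.58% were higher and 7.99% lower. The median log2 ratio of KO over WT was -0.21 over the Hox pairs and 0.01 over all genes. In the 6 classes outside the lineage 93 Hox pairs met the minimum, of which 3 were higher and 4 were lower, against 4.53% higher and 3.91% lower of all 60785 pairs. Their median was -0.03, against 0.002 over all genes. Of the 28 lower pairs in the lineage, 12 came from the loop of Henle and 11 from the distal tubule. The remaining 5 were 1 in progenitors, 1 in podocytes and 3 in the proximal tubule.

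In the loop of Henle 25 Hox genes met the minimum, and 24 had a ratio below 1. None was higher and 12 were lower, against 10.2% of all genes higher and 13.6% lower. The median log2 ratio was -0.58, against -0.02 over all genes. The genes came from every cluster. Hoxb6 had 1394 UMIs (123 CPM) in KO and 1773 UMIs (207 CPM) in WT loop cells, a ratio of 0.592 (0.552 to 0.636). Hoxb8 had a ratio of 0.587 (0.536 to 0.643), Hoxd9 0.574 (0.524 to 0.630), Hoxd4 0.536 (0.449 to 0.640) and Hoxc5 0.518 (0.382 to 0.698). All Hox genes together had 1373 CPM in KO and 2003 CPM in WT loop cells, a ratio of 0.685 (0.670 to 0.700). With every cell thinned to 3000 UMIs the ratio was 0.718 (0.647 to 0.796).

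The loop of Henle cells of the libraries did not fall in the same finer clusters. A finer cluster led by Umod and Ptger3 held 171 KO cells and no WT cell, and a finer cluster led by Pappa2 and Slc12a1 held 24 KO and 144 WT cells. Over the whole class Slc12a1, the sodium-potassium-chloride cotransporter of the thick limb, had 4530 CPM in KO and 7417 CPM in WT, Umod had 3172 CPM in KO and 943 CPM in WT, and Ptger3 had 917 CPM in KO and 287 CPM in WT. The KO-only finer cluster had a Hox sum of 1251 CPM. In the shared finer cluster the sum was 2379 CPM in KO and 2003 CPM in WT, a ratio of 1.19 (1.14 to 1.23), with median depths of 30182 UMIs in KO and 45306.5 UMIs in WT cells. The Hox sum of KO cells was thus lower than that of WT cells in the class as a whole and not within the shared finer cluster. The split holds at resolution 2 only, since KO and WT loop cells formed 1 cluster at resolutions 1 and 0.5, and expression that differs between the libraries can itself set such a split. The difference in cell make-up and the difference in Hox level cannot be told apart here.

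Gene by gene, Hoxb6 had 107 CPM in the KO-only finer cluster, and in the shared one 249 CPM in KO and 207 CPM in WT. Hoxb3 had 117 CPM in the KO-only finer cluster, and in the shared one 336 CPM in KO and 204 CPM in WT, a ratio of 1.65 (1.48 to 1.84). Hoxd9 had 66.4 CPM in the KO-only finer cluster, and in the shared one 118 CPM in KO and 125 CPM in WT. Hoxa7 had about the same level in all, 81.1 CPM in the KO-only finer cluster and, in the shared one, 85.3 CPM in KO and 91.6 CPM in WT. Of the 25 genes in the shared finer cluster 6 were higher (Hoxb2, Hoxb3, Hoxb4, Hoxc5, Hoxc8 and Hoxc9) and none lower, against 12.1% of all genes higher and 12.8% lower. Hoxd8 kept a ratio below 1 there, 0.741 (0.642 to 0.852), with 179 CPM in KO and 241 CPM in WT. The shared finer cluster has only 24 KO cells, and the intervals take no account of differences between them.

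**Figure D4:**
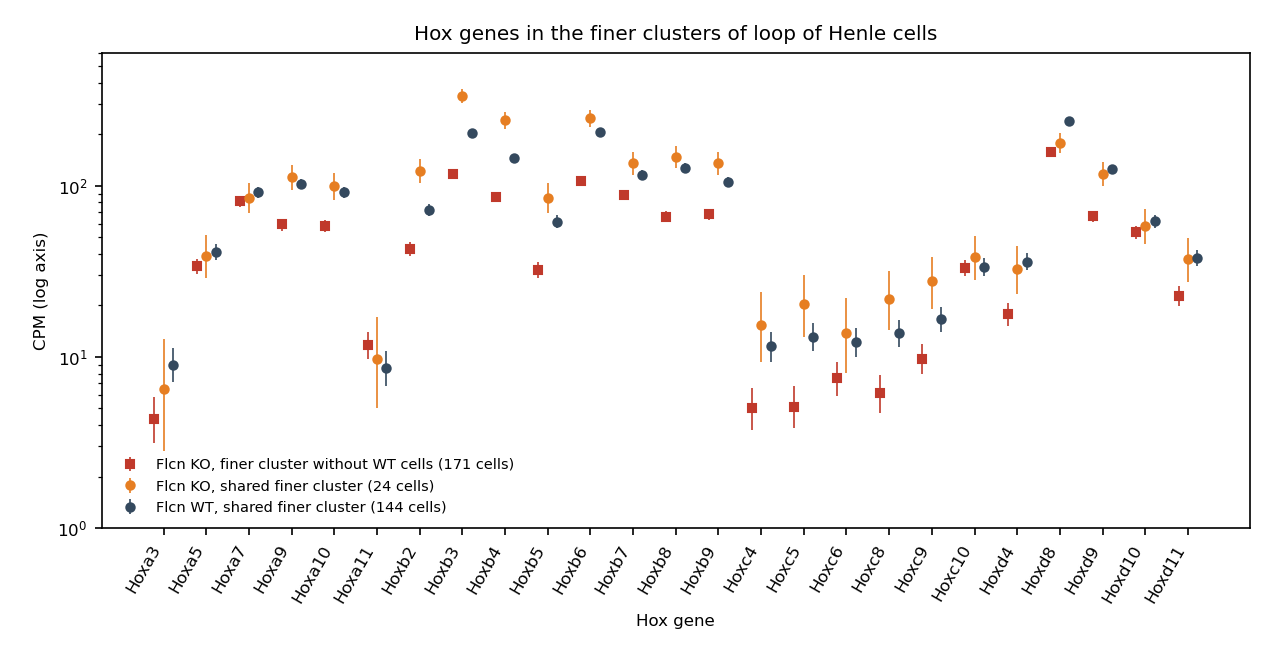
Level in CPM on a log axis of the 25 Hox genes that met the minimum in the loop of Henle, for the 171 KO cells of the finer cluster without WT cells (squares), the 24 KO cells of the shared finer cluster and its 144 WT cells (circles), with exact Poisson 95% intervals. For Hoxb6 the points stand at 107, 249 and 207 CPM, and for Hoxa7 at 81.1, 85.3 and 91.6 CPM.

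In the distal tubule 17 Hox genes met the minimum, 16 had a ratio below 1, 11 were lower and none was higher, against 13.1% of all genes higher and 14.9% lower. The median log2 ratio was -0.77 over the 17 genes, against -0.004 over all genes. Hoxd11 had 51 UMIs (46.2 CPM) in KO and 216 UMIs (114 CPM) in WT, a ratio of 0.407 (0.294 to 0.555). Hoxb3 had 137 UMIs (124 CPM) in KO and 545 UMIs (286 CPM) in WT, a ratio of 0.434 (0.357 to 0.524). The sums of this class leave out an unnamed cluster led by Klk1, which markers placed in the distal tubule with finer clustering. There clusters A, B and D summed higher in KO, from 7 KO and 26 WT cells. The sums of the class rest on 24 KO and 28 WT cells. For the 11 genes, the 5 cells with the most UMIs held between 44.7% and 69.4% of the UMIs of a library, and for Hoxb3 they held 47.4% in KO and 67.0% in WT. Under some alternatives these ratios came nearer to 1. That of Hoxb3 was 0.749 with all barcodes over 500 UMIs, 0.735 with doublet scores ignored and 0.707 with a mitochondrial limit of 10%, short of 1.5-fold in each. The cells of the class changed as well, to 76 KO and 171 WT with all barcodes and 36 KO and 83 WT with the mitochondrial limit. Intercalated markers summed to 927 CPM in KO and 732 CPM in WT distal cells, against 2091 and 1998 CPM in the intercalated class. Whether the distal class holds intercalated cells was not tested. Of the 6 distal genes followed through the alternatives, 5 fell short of 1.5-fold under at least 1, and Hoxd11 did not. Mitochondrial RNA made 9.30% of UMIs in KO and 5.65% in WT distal cells, and its part in the Hox difference was not tested. Markers of the class differed too. Slc12a3, the thiazide-sensitive cotransporter that defines the distal convoluted tubule, had 275 CPM in KO and 1854 CPM in WT, and Calb1 had 208 CPM in KO and 2149 CPM in WT. The part of such marker differences in the Hox difference was not tested.

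In nephron progenitors 30 Hox genes met the minimum, 24 had a ratio below 1, 1 was lower and none was higher, against 4.21% of all genes higher and 3.6% lower. The median log2 ratio was -0.12 over the 30 genes, against 0.02 over all genes. The 1 lower gene was Hoxd12. It had 88 UMIs (7.46 CPM) in KO and 211 UMIs (16.3 CPM) in WT progenitors, a ratio of 0.459 (0.354 to 0.591). Of 496 KO progenitors 75 had a Hoxd12 UMI (15.1%), against 161 of 499 WT progenitors (32.3%), and after thinning to 3000 UMIs in 1.42% of KO and 4.43% of WT cells. None of the 196 KO and 76 WT immune cells had one, with median depths of 8765 and 8819.5 UMIs against 21009.5 in KO and 22570 in WT progenitors. The difference was seen in both finer clusters of progenitors. In the one led by Nell1 Hoxd12 had 8.75 CPM in KO and 18.3 CPM in WT, a ratio of 0.477 (0.347 to 0.649), and in the one led by Dab1 5.88 CPM in KO and 11.8 CPM in WT, a ratio of 0.497 (0.306 to 0.794). In the early nephron finer cluster led by Eya1 and Six2 it had 23 UMIs (5.86 CPM) in KO and 61 UMIs (8.5 CPM) in WT. The neighbours of Hoxd12 in cluster D differed less. Hoxd11 had a ratio of 0.825 (0.780 to 0.872), Hoxd10 0.812 (0.719 to 0.916) and Hoxd9 0.768 (0.674 to 0.875), all short of the 1.5-fold limit. Hoxa11 was the Hox11 paralogue with a ratio above 1 there, 1.18 (1.06 to 1.31). Markers of progenitors also differed between the libraries, in both directions. Cited1, a marker of the least committed progenitors, had 36.8 CPM in KO and 76.0 CPM in WT, and Six2 had 197 CPM in KO and 214 CPM in WT. Crym, Eya1 and Osr1 were lower in KO too. Itga8 went the other way with 542 CPM in KO and 421 CPM in WT, as did Meox1 with 24.9 and 15.7 CPM and Uncx with 347 and 337 CPM. The part of these marker differences in that of Hoxd12 was not tested.

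In early nephron cells 28 genes met the minimum, 20 had a ratio below 1, and none passed the limit in either direction, against 3.94% of all genes higher and 2.64% lower. The median log2 ratio was -0.19 over the 28 genes, against -0.02 over all genes. The sum over all Hox genes had a ratio of 0.902 (0.890 to 0.914), and in 6 of the 7 finer clusters the ratio lay between 0.914 and 1.02. The exception was the one led by Grid1, with 112 KO and 90 WT cells, where the sum was 997 CPM in KO and 1249 CPM in WT, a ratio of 0.798 (0.768 to 0.829). In podocytes Hoxa11 was higher and Hoxb9 lower among 23 genes, against 8.94% of all genes higher and 6.15% lower. Hoxa11 had 29 UMIs (8.90 CPM) in KO and 26 UMIs (4.86 CPM) in WT, a ratio of 1.83 (1.04 to 3.24), and Hoxb9 had 40 UMIs (12.3 CPM) in KO and 117 UMIs (21.8 CPM) in WT, a ratio of 0.562 (0.382 to 0.811). In the proximal tubule 3 of 20 genes were lower and none higher, against 13% of all genes higher and 9.44% lower. Hoxa9 had 674 UMIs (47.7 CPM) in KO and 1295 UMIs (81.1 CPM) in WT, a ratio of 0.589 (0.536 to 0.647). Of the proximal finer clusters, the one led by Slc5a12 held 190 KO and 62 WT cells and the one led by Slc34a1 held 42 KO and 182 WT cells, and the Hoxa9 ratios within them were 0.582 (0.488 to 0.696) and 0.724 (0.599 to 0.871). In the finer cluster led by Serpina6, with 36 KO and 110 WT cells, the ratio was 1.04 (0.839 to 1.29). The others were Hoxc5 with a ratio of 0.575 (0.414 to 0.791) and Hoxc8 with 0.653 (0.461 to 0.917), and in WT 5 cells held 37.3% and 30.9% of their UMIs. The proximal counts are for the whole class, and its finer clusters differed. Of the 20 genes, 7 were higher and 8 lower in the Slc5a12 finer cluster, and 1 higher and 3 lower in the Slc34a1 finer cluster. In the Serpina6 finer cluster 6 were higher and 0 lower, and the Hox sum had a ratio of 1.28 (1.20 to 1.36). The share of all genes past the limit was not counted in these finer clusters.

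Outside the lineage the ureteric bud and collecting duct had 13 genes that met the minimum. Of these 12 lay within 1.5-fold and 1 was higher, against 3.69% of all genes higher and 3.08% lower. That gene was Hoxa10, with 63 UMIs (16.3 CPM) in KO and 43 UMIs (4.96 CPM) in WT, a ratio of 3.28 (2.19 to 4.96). Its UMIs came from 7 of 83 KO and 14 of 184 WT cells, and 5 cells held 96.8% of them in KO and 74.4% in WT. The share of cells with a UMI was 8.43% in KO and 7.61% in WT, and after thinning 2.5% in KO and 1.67% in WT, against 1.71% in KO and 1.47% in WT immune cells. The thinned shares rest on 3 UMIs in KO and 3 in WT ureteric cells, and on 3 in KO and 1 in WT immune cells. These are too few to set the classes against each other. Before thinning most UMIs came from few cells, with 21 in 1 KO cell. Among intercalated cells Hoxd3 was lower, with 13 UMIs in KO and 86 UMIs in WT, and none was higher, against 8.1% of all genes higher and 6.23% lower.

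In endothelium 17 genes met the minimum, 2 were higher and 1 lower, against 1.95% of all genes higher and 1.75% lower. Both higher genes belong to cluster D. Hoxd9 had 196 UMIs (11.4 CPM) in KO and 37 UMIs (3.43 CPM) in WT, a ratio of 3.32 (2.33 to 4.85). Hoxd4 had 197 UMIs (11.5 CPM) in KO and 61 UMIs (5.66 CPM) in WT, a ratio of 2.02 (1.51 to 2.74). Their neighbour Hoxd8 had 25.2 CPM in KO and 17.5 CPM in WT. The difference was largest in the finer cluster led by Sox17, a gene of arterial endothelium, with 124 KO and 72 WT cells. There Hoxd9 had 29.9 CPM in KO and 7.80 CPM in WT, a ratio of 3.83 (2.36 to 6.55), and Hoxd4 had 20.9 CPM in KO and 8.21 CPM in WT, a ratio of 2.55 (1.56 to 4.36). In the finer cluster led by Plvap and Tek, with 238 KO and 160 WT cells, Hoxd9 had 4.46 CPM in KO and 2.54 CPM in WT, a ratio of 1.76 (0.897 to 3.65). Of the 17 genes, 6 were higher and 1 lower in the Sox17 finer cluster, where the Hox sum had a ratio of 1.16 (1.07 to 1.25). In the Plvap and Tek one 1 was higher and 1 lower, and the sum had a ratio of 0.965 (0.913 to 1.02). No share of all genes was counted within these finer clusters. Of 460 KO endothelial cells 111 had a Hoxd4 UMI, against 43 of 296 WT endothelial cells, with median depths of 26364.5 UMIs in KO and 22143 UMIs in WT. No immune cell had one. For Hoxd9 the shares after thinning were 2.85% in KO and 1.02% in WT endothelium, against 1.14% in KO and 1.47% in WT immune cells. They rest on 15 UMIs in KO and 3 in WT endothelium, and on 2 in KO and 1 in WT immune cells. These are too few to set the WT share against the immune one. Of the Hoxd9 UMIs 5 cells held 32.7% in KO and 40.5% in WT. Hoxa4 was lower, with 49 UMIs in KO and 56 UMIs in WT, a ratio of 0.548 (0.366 to 0.819). In immune cells no Hox gene met the minimum, where 6.91% of all genes were higher and 8.19% lower.

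**Figure D5:**
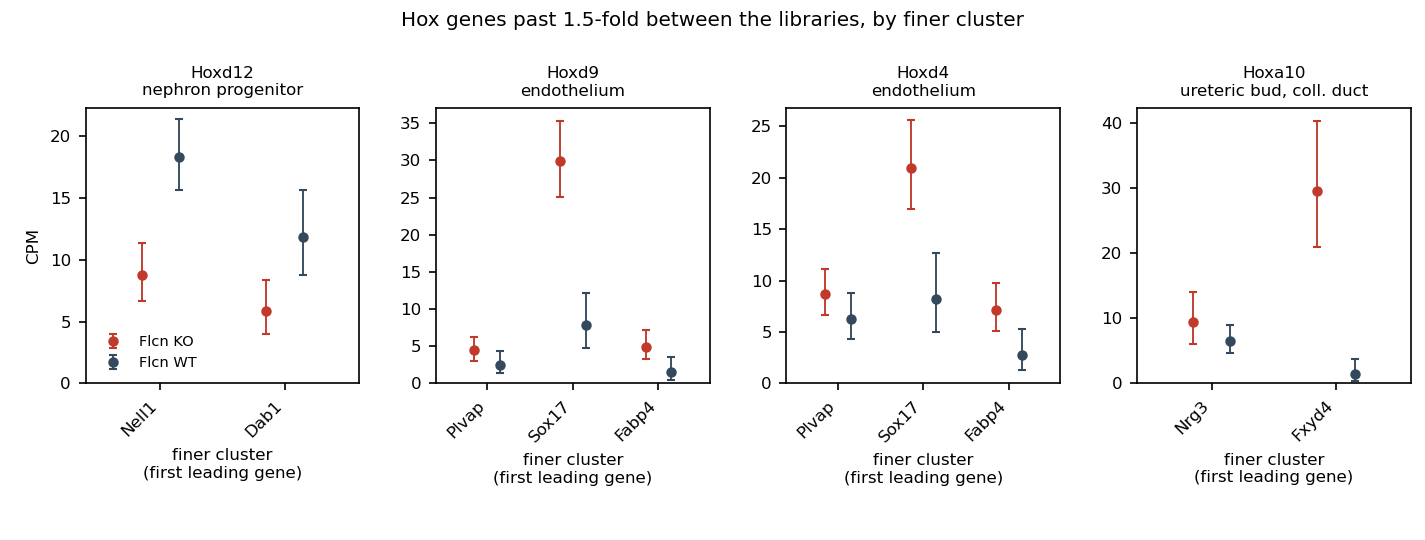
Level in CPM of Hoxd12 in the finer clusters of nephron progenitors, of Hoxd9 and Hoxd4 in those of endothelium and of Hoxa10 in those of ureteric bud and collecting duct, with KO points left of WT points and exact Poisson 95% intervals. Hoxd12 is lower in KO in both of its finer clusters, and Hoxd9 and Hoxd4 differ most in the Sox17 finer cluster, where Hoxd9 has 29.9 CPM in KO and 7.80 CPM in WT.

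In stroma 28 genes met the minimum and 1 was lower, against 2.5% of all genes higher and 1.85% lower. That gene was Hoxb8, at 4.59 CPM in KO and 7.14 CPM in WT, a ratio of 0.642 (0.505 to 0.817). Below the 1.5-fold limit the clusters differed in direction. Cluster D summed to 443 CPM in KO and 353 CPM in WT, a ratio of 1.26 (1.22 to 1.29), and cluster A to 512 CPM in KO and 456 CPM in WT, a ratio of 1.12 (1.09 to 1.15). Cluster B summed to 138 CPM in KO and 165 CPM in WT, a ratio of 0.836 (0.799 to 0.875), and cluster C to 275 CPM in KO and 322 CPM in WT, a ratio of 0.854 (0.826 to 0.882). Hoxd10 had 90.5 CPM in KO and 63.7 CPM in WT, a ratio of 1.42 (1.33 to 1.52), and Hoxa11 had a ratio of 1.37 (1.28 to 1.47). Cell numbers of the stromal clusters differed between the libraries, so the levels were also set side by side within each of the 9. Hoxa10, Hoxa11 and Hoxd10 were each higher in KO in 6 of the 9 clusters, Hoxd11 in 5 and Hoxd9 in 8. Other genes of cluster A went the other way, with Hoxa9 lower in KO in 6 of the 9 and Hoxa6 and Hoxa7 in 7. Hoxb2, Hoxc4 and Hoxc9 were each lower in KO in 8 of the 9, and Hoxc6 was higher in 6. These counts take any difference in CPM and were not made for all genes. The 9 clusters come from the same libraries and are not repeats. Summed, clusters A and D were lower in KO in the stromal clusters led by Lrriq1, Cck and Dlk1 and higher in the others. In the Lrriq1 cluster A had 687 CPM in KO and 747 CPM in WT, and D had 504 CPM in KO and 544 CPM in WT. In the Aspm cluster Hoxa10 had 224 CPM in KO and 155 CPM in WT, and Hoxd11 had 219.9 CPM in KO and 148 CPM in WT. In mural cells 1 of 23 genes was lower and none higher, against 6.1% of all genes higher and 4.83% lower. It was Hoxb7, with 14.1 CPM in KO and 23.4 CPM in WT, a ratio of 0.604 (0.402 to 0.906), and Hoxd11 came nearest to the upper limit with a ratio of 1.495 (1.18 to 1.90).

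Genes that work with or on the Hox clusters were counted in the same way. TALE homeodomain proteins of the Pbx, Meis and Pknox families bind DNA together with Hox proteins. Of 8 counted in the loop of Henle, Meis1 and Meis2 were higher and Pbx3 and Pknox2 lower, against 10.2% of all genes higher and 13.6% lower. In the distal tubule 4 of 5 were lower, with a median log2 ratio of -0.64, against 14.9% of all genes lower. Pbx3 had 133 CPM in KO and 227 CPM in WT loop cells, and in stroma it had 192 CPM in KO and 300.1 CPM in WT, a ratio of 0.639 (0.616 to 0.662). It was the only 1 of 8 past the limit in stroma, against 2.5% of all genes higher and 1.85% lower. In progenitors Meis1 alone of 8 passed the limit, with 133 CPM in KO and 69.1 CPM in WT. Of the kidney partners and targets of Hox11 none of 10 passed it in progenitors. Of all genes there 4.21% were higher and 3.6% lower, so few of any 8 or 10 genes would pass. In the loop of Henle 5 of these partners and targets were counted, of which 1 was higher and 2 were lower, against 10.2% of all genes higher and 13.6% lower. Pax2, a paired-box factor of early kidney epithelium, had 156 CPM in KO and 414 CPM in WT loop cells, a ratio of 0.377 (0.356 to 0.399). In the distal tubule it had 97.9 CPM in KO and 254 CPM in WT, the 1 lower of 3 counted, against 14.9% of all genes lower. The loop of Henle values here and in the next paragraph are for the whole class. Of its 195 KO cells 171 fell in the finer cluster without WT cells. These genes were not compared within the shared finer cluster, so cell make-up and level cannot be told apart.

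Polycomb proteins keep Hox genes silent and MLL complexes keep them active. None of 16 Polycomb genes passed the limit in progenitors, where 4.21% of all genes were higher and 3.6% lower. None of 16 passed it in stroma either, against 2.5% of all genes higher and 1.85% lower. In the loop of Henle 4 of 16 were lower and none higher, with a median log2 ratio of -0.33, against 10.2% of all genes higher and 13.6% lower. In the distal tubule 5 of 14 were lower and none higher, with a median of -0.45, against 13.1% of all genes higher and 14.9% lower. Ezh2, the methyltransferase of the complex, was lower in the loop of Henle, with 62.9 CPM in KO and 98.9 CPM in WT loop cells. None of 9 genes for MLL components and demethylases passed the limit in progenitors, loop of Henle or stroma, beside the shares of all genes given above. In the distal tubule 2 of 8 were lower, against 14.9% of all genes, and 1 of 9 was higher in intercalated cells, against 8.1%. Among upstream regulators Aldh1a2, which makes retinoic acid, was higher in the proximal tubule with 147 CPM in KO and 96.5 CPM in WT, and in the loop of Henle with 155 CPM in KO and 96.7 CPM in WT. It was the 1 higher of 4 counted in the proximal tubule, with none lower, against 13% of all genes higher and 9.44% lower. In the loop of Henle 1 of 5 was higher and 1 lower, and in the distal tubule 1 of 4 was higher and 2 lower. These counts are too small to set against the shares of all genes. Of 13 protein-coding neighbours of the clusters counted in progenitors, Snx10 alone passed the limit, against 4.21% of all genes higher and 3.6% lower. It was higher, with 35.8 CPM in KO and 20.3 CPM in WT. Of 7 counted non-coding genes inside the clusters 3 were lower in the proximal tubule and none higher, against 13% of all genes higher and 9.44% lower. They were Hoxb3os, Hoxb5os and Hoxaas3. Hoxb3os had 459 UMIs (32.5 CPM) in KO and 1053 UMIs (65.9 CPM) in WT, while Hoxb3, which it overlaps on the other strand, had 45 CPM in KO and 48.3 CPM in WT.

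Promoter sequence from RefSeq (GRCm38.p6, 250 bases before to 50 after the gene start) was matched for 22 of the 39 genes. The 4 that follow lie on the plus strand of cluster D, and are shown because Hoxd12 differed in progenitors, Hoxd9 in endothelium and Hoxd8 had the highest level of cluster D in the distal tubule, with Hoxd11 as the neighbour of Hoxd12. Capitals mark a match to 1 of 4 motifs searched on both strands: CACGTG, which the TFE and MYC families bind, TTTATG for Cdx and posterior Hox factors, AGGTCA, which nuclear receptors such as the retinoic acid receptors bind, and TGATNNAT for Hox with Pbx. CACGTG reads the same on both strands, and matches of different motifs were allowed to overlap.
Hoxd12, chr2:74674763-74675062: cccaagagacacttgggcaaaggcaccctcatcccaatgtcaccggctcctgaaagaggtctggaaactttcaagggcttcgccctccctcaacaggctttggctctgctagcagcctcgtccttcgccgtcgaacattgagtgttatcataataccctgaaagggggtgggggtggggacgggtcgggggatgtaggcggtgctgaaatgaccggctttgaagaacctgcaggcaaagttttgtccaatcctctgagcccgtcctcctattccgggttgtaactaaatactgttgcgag
Hoxd11, chr2:74679308-74679607: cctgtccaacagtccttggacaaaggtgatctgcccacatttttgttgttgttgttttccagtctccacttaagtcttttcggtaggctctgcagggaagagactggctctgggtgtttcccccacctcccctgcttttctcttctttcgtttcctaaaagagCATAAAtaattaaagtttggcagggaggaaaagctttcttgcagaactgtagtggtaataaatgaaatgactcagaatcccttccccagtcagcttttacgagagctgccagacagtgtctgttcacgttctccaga
Hoxd9, chr2:74697513-74697812: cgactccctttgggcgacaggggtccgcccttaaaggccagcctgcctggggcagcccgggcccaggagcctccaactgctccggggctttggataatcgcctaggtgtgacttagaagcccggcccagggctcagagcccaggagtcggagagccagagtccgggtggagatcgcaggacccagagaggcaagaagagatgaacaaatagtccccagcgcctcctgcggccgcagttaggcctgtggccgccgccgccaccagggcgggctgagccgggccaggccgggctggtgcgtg
Hoxd8, chr2:74704365-74704664: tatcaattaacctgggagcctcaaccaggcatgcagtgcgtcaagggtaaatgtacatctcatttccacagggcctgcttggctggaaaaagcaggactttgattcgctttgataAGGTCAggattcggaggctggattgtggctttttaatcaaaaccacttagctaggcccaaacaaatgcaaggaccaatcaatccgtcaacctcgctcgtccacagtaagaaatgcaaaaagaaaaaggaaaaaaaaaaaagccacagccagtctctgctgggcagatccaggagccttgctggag
The Hoxd11 window held 1 TTTATG match, read as CATAAA on this strand, and the Hoxd8 window 1 AGGTCA match. The Hoxd10 window, which lies between those of Hoxd11 and Hoxd9 and is not printed, held CACGTG and AGGTCA. The Hoxd12 and Hoxd9 windows held none, and that of Hoxd9 was 68.3% G and C. Over the 22 Hox promoters CACGTG occurred in 4, against 7.24% of all 27025 promoters of the same length. TTTATG occurred in 5, against 12.1%, AGGTCA in 7, against 16%, and TGATNNAT in 3, against 9.04%. A match describes these letters and is not a measured binding site.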

How the data were processed

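The authors deposited whole-number UMI counts per gene and barcode, made with Cell Ranger 7.1.0 for the KO and 7.0.0 for the WT library, per the file headers, after 10x 3′ version 2 chemistry, per the labels' protocols. The submitters' processing notes also name bcl2fastq 2.20.0, STAR 2.7.2a and the build GRCm38. Whether the version difference moves a value was not tested.

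Barcodes with at least 1000 UMIs, 500 genes and at most 20% mitochondrial UMIs were kept, which removed 11.6% of KO and 17.7% of WT barcodes for mitochondrial share. Scrublet called 83 KO and 52 WT doublets, and the highest-scoring 242 KO and 187 WT barcodes, the expected share, were removed. Cells were clustered with scanpy 1.11.5 (2000 variable genes without Hox genes, 40 components, 20 neighbours, Leiden resolution 1), and clusters were named from marker lists, with score limits set after seeing the data. Finer clusters used resolution 2. The 244 KO and 365 WT cells of unnamed clusters stayed out of the classes.

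Counts were summed per class and library, and tested on simulated counts first. No hypothesis test was run. Depth gives 10 CPM the precision of between 7.51 and 323 UMIs, depending on the class and library. Genes past 1.5-fold were named by the size of the interval bound nearest to 1, up to 6 per class and direction, with the Hox10 and Hox11 paralogues, Hoxb7 and Hoxd8. Alternatives were TMM (edgeR 4.0.16) and median-of-ratios (DESeq2 1.42.0) scaling, other resolutions, filters, minimums and levels, thinning, and a mean over cells. The Hox genes and all lists were chosen with earlier results of these data known. Results for some genes are not reported here.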

Additional observations from a re-analysis of the deposited data

Results flagged for a closer look

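Hoxa10, Hoxd4 and Hoxd9 passed 1.5-fold in opposite directions in different classes, in each case with intervals that lay on opposite sides of 1. The difference between the classes was not tested, since there is 1 library per genotype. Hoxa10 had a ratio of KO over WT of 3.28 (2.19 to 4.96) in ureteric bud and collecting duct, where 5 cells held 96.8% of its KO UMIs, and of 0.665 (0.510 to 0.859) in the distal tubule. Hoxd4 had a ratio of 2.02 (1.51 to 2.74) in endothelium and of 0.536 (0.449 to 0.640) in the loop of Henle. Hoxd9 had a ratio of 3.32 (2.33 to 4.85) in endothelium, of 0.574 (0.524 to 0.630) in the loop of Henle and of 0.641 (0.527 to 0.775) in the distal tubule. In the finer loop of Henle cluster shared by the libraries the ratios were 0.901 (0.631 to 1.25) for Hoxd4 and 0.94 (0.785 to 1.12) for Hoxd9.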

How the results depend on the processing

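No paired analysis was possible because each genotype has 1 library. Of the values that answer a comparison, 199 stayed within counting error or within 1.5 times the reported count under an alternative, 24 moved and 1 reversed. Of the values for single genes, 205 stayed, 39 moved and 5 reversed. The cause was not tested except where named.

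Over the Six2-lineage classes the 1 higher pair became 4 with a mitochondrial limit of 10%, 4 with all barcodes over 500 UMIs, 0 at resolution 0.5, 3 with a mean over cells, 7 with thinning, 15 with no minimum of UMIs and 0 with at least 200 UMIs. The 28 lower pairs became 56 with no minimum and 17 without the distal tubule class. With the loop of Henle limited to the finer cluster shared by both libraries, an alternative chosen after seeing the data, there were 7 higher and 16 lower pairs and the median log2 ratio was -0.10. The median was -0.14 with all barcodes, -0.15 at resolution 2 and -0.14 with thinning. Outside the lineage the 3 higher pairs became 6 with doublet scores ignored, 6 with a mean over cells, 17 with thinning and 28 with no minimum, and the 4 lower pairs became 10, 43 and 1 with thinning, no minimum and at least 200 UMIs. The median there turned to 0.052 with thinning. Thinning and the absence of a minimum let pairs of few UMIs in. The number of pairs counted and the share of all genes past the limit are not given here for each alternative. The counts therefore show how the calls depend on the setting and cannot be read as results about the Hox genes.

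At a level of 20 CPM mural cells had 15 genes in place of 23, and with doublet scores ignored immune cells had 3. Reversed values were Hoxd3 in intercalated cells at resolution 2 (1.72) and, with thinning, Hoxc5 in the proximal tubule (1.32), Hoxb8 in the loop of Henle (1.07), Hoxb6 in the distal tubule (1.17) and Hoxa4 in endothelium (3.86). All barcodes over 500 UMIs gave no intercalated class. Past 1.5-fold at all 10 settings applied to every class were Hoxd12 in progenitors (0.320 to 0.512), Hoxd11 in the distal tubule (0 to 0.601), Hoxa10 in ureteric bud and collecting duct (2.24 to 4.32), Hoxb7 in mural cells (0.456 to 0.615) and Hoxd9 in endothelium (1.75 to 3.41). Some of these rest on few UMIs, so passing every setting does not show a stable ratio. The 0 of Hoxd11 means no KO UMI. Thinned, Hoxa10 had 3 UMIs in each library (2.24, 0.300 to 16.7). Hoxb7 had 10 in KO and 11 in WT (0.456, 0.174 to 1.18). Hoxd9 had 15 and 3 (3.21, 0.909 to 17.3). Hoxc5 and Hoxd4 in the loop of Henle were lower at all 10 settings too, but in the finer cluster shared by both libraries Hoxc5 was 1.55 (0.964 to 2.41) and Hoxd4 0.901 (0.631 to 1.25). Scaling moved the median of all genes by over 0.1 (log2) only in intercalated (-0.10) and immune cells (0.10), with median-of-ratios.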

Other observations

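The marker lists left 5 clusters without a name, and these too differed in their Hox RNA. The cluster led by Sim2, Spon1 and Irx1 (72 KO and 69 WT cells) had the highest cluster B sum outside the ureteric bud classes, 1526 CPM in KO and 1741 CPM in WT, with cluster C at 189.8 CPM in KO and 215 CPM in WT. The cluster led by Aldh1a3, Spint4 and Bmp3 (32 KO and 46 WT cells) combined cluster A at 730.2 CPM in KO and 860.0 CPM in WT with cluster B at 1027 CPM in KO and 1084 CPM in WT. In it Hoxa10 had 376 CPM in KO and 430.5 CPM in WT. The cluster led by Klk1, S100g and Defb1 (7 KO and 26 WT cells) had no cluster C UMI in either library and 991 CPM of cluster D in KO and 945 CPM in WT, and Hoxd8 made 529 CPM of this in KO and 489 CPM in WT. Cluster A had 330 CPM in KO and 169 CPM in WT there, and cluster B 925 CPM in KO and 624 CPM in WT. With finer clustering markers placed these cells in the distal tubule, a class in which all 4 sums were lower in KO. Their depth was only 0.101 of the library median. The cluster led by Tmem132c, Npr3 and Wnt16 (71 KO and 61 WT cells) was led by cluster C, with 581 CPM in KO and 676 CPM in WT. The cluster led by Miox, Gsta2 and Fbp1 (62 KO and 163 WT cells) was led by cluster B, with 294 CPM in KO and 339 CPM in WT.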
